A study of Mus musculus with 6 samples.

Results

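Proteasome subunit genes were followed in RNA from nuclei of HL-1, an established line of beating mouse cardiomyocytes derived from the atrium. They were taken as every protein-coding row of the deposited table whose symbol begins with Psm, 1 letter from a to g and a digit, which gave 50 of 28660 loci. Nuclei of cells grown with norepinephrine in the medium were split into a chromatin pellet and a soluble extract, and each fraction gave 3 libraries, 6 in all. ERCC spike-ins, synthetic RNAs of known sequence, were added to each fraction before RNA extraction. All libraries come from a single line and no other genotype or treatment was compared. The authors pooled the 3 libraries of a fraction into 1 FPKM value (fragments per unit of transcript length and of sequencing depth). No spread between cultures can therefore be computed, no test across replicates was possible, and the number of reads behind a value is unknown.

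The proteasome is the barrel-shaped protease that degrades proteins tagged with ubiquitin. Its core, the 20S particle, stacks rings of alpha subunits, which gate entry, and beta subunits, which hold the protease sites. A 19S cap recognises ubiquitin, removes it and unfolds the substrate with a ring of ATPases. Other caps and activators open the barrel without ubiquitin, and dedicated chaperones assemble both particles. In heart muscle the system turns over sarcomere and signalling proteins. Its messenger RNAs are made in the nucleus and translated in the cytoplasm, so a nuclear fractionation reads them on the way from the gene to export.

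Ratios were taken as the log2 of pellet FPKM, multiplied by the spike-in factor of 3.37 that the authors applied, over soluble FPKM. This is called the spike-in scale, and it assumes equal amounts of spike-in in both fractions. A value of -1 means 2-fold less RNA in the pellet than in the soluble extract. The deposited FPKM values without that factor give ratios lower by 1.75 for every gene, so an order of genes or a difference between genes is the same on both scales, but a side is not. A gene was counted as higher or lower at 2-fold or more, and a locus was tested if its 2 FPKM values averaged 0.5 or more, which held for 13917. Of the proteasome genes, 47 of 50 reached that level. They include Psmc3ip, which the name pattern caught although it is no part of the proteasome. The mean levels of these 47 ran from 2.18 to 432.9 FPKM. The log2 ratios of the 28 spike-ins within that range had an SD of 0.10 about their own mean. Their median on the spike-in scale was -0.04. This technical scatter is the error given for each ratio below. For a difference between 2 genes, 2 SDs of a difference come to 0.29. It covers neither the fractionation nor the cells.

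Markers of the labelled cell type had the largest summed level, from lists of unequal length. Some RNAs listed for other muscle and stromal types were high beside them, while others of those lists were low. Of 10 cardiomyocyte markers 8 were found and all 8 reached 0.5 FPKM, with a summed soluble level of 3651 FPKM and a summed pellet level of 686.0. Ryr2 and Ttn were not found. Nppa (1.63 soluble and 0.208 pellet FPKM) and Actn2 (4.67 and 5.61 FPKM) were low. The 4 smooth muscle markers summed to 1922 and 289.7 FPKM, mostly Acta2 and Tagln. Myh11 (0.867 soluble and 0.404 pellet FPKM) and Cnn1 (1.43 and 0.173 FPKM) were low. Acta2, at 1539 soluble FPKM, was the highest single marker, above Myl7 of the cardiomyocyte list at 1119. Of 5 fibroblast markers 4 were found, with sums of 346.5 and 88.3 FPKM, mostly Col3a1. Pdgfra (3.59 soluble FPKM), Dcn (1.74) and Col1a2 (0.707) were low. The 5 immune markers summed to 0.943 and 0.716 FPKM. Only Cd68 reached the level filter, and none was listed at exactly 0. The 5 endothelial markers summed to 7.05 FPKM in the soluble fraction, the 3 neuronal ones to 2.02 and the 2 of 4 skeletal muscle markers found to 0.80.

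Sequences upstream of 5 genes are shown because they span the range of ratios described below. Psmb5 had the lowest ratio. Psmd14, Psmg1 and Psme4 were the genes with a ratio above 0. Psmb9 is the immunoproteasome gene that shares its start region with the peptide transporter gene Tap1. All are from RefSeq on GRCm38.p6, the build that mm10 names, printed 5′ to 3′ on the strand of the gene. Capitals mark matches, on either strand, to the motifs searched: TGANNNNGC (the core bound by the CNC-bZIP factors Nfe2l1 and Nfe2l2), CCGGAAG (an ETS site), CCAAT, GCGCANGCG (most of the NRF1 palindrome), TATAAA and GAAANNGAA (an interferon response core).
Psmb5, chr14:54617996-54618245, minus strand: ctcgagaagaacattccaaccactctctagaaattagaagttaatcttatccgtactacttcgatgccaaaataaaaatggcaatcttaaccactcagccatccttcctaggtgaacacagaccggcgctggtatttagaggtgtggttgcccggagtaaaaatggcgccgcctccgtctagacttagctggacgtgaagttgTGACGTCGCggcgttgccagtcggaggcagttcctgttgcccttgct
Psmd14, chr2:61711444-61711693, plus strand: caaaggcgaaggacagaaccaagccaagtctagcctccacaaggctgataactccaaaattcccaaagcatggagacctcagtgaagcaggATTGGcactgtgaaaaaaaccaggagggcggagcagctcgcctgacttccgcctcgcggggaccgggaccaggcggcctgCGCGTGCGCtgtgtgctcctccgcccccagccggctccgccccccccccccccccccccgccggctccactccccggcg
Psmg1, chr16:95990961-95991210, minus strand: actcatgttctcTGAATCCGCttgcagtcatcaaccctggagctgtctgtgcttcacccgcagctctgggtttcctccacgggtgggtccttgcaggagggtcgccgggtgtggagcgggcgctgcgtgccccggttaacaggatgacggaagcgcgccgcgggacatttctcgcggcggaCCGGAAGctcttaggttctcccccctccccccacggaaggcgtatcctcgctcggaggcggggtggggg
Psme4, chr11:30771525-30771725, plus strand: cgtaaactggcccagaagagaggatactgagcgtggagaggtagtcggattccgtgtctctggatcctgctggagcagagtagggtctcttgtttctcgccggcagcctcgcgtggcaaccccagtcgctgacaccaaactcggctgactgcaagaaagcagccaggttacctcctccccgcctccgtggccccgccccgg
Psmb9, chr17:34187331-34187555, minus strand: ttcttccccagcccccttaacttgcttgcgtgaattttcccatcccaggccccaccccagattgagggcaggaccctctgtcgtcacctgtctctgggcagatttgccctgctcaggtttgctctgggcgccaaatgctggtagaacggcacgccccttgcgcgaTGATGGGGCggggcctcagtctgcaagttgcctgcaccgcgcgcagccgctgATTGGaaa
The TGANNNNGC match starts 47 bases before the RefSeq start of Psmb5 and 60 before that of Psmb9. The ETS match of Psmg1 starts 69 bases before its start. The NRF1 match of Psmd14 starts 79 bases before its start. The stretch of Psme4 holds no match, although its RefSeq window, which runs on past the printed end, does. The Psmb9 stretch is the whole interval between the RefSeq starts of Psmb9 and Tap1, which are read in opposite directions.

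Most proteasome messages lay towards the soluble extract. Of the 47 tested, 24 (51.1%) were at least 2-fold lower in the pellet, where 10.5% of all tested loci and 10.6% of tested protein-coding genes were. None was 2-fold higher, where 31.9% of all tested loci were. The median log2 ratio was -1.003 (interquartile range -1.23 to -0.43), against 0.41 for all tested loci and 0.27 for the other 11350 tested protein-coding genes. In terms of the rescaled signal, a median of 33.3% of a proteasome message was in the pellet, and the share ran from 23.1% for Psmb5 to 65.8% for Psme4. On either scale, 45 of the 47 lay below the median of the other protein-coding genes. Psme4 and Psmg1 were the exceptions. On the FPKM scale 46 of 47 were at least 2-fold lower, where 61.2% of all tested loci were, and none was 2-fold higher, where 9.66% were.

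**Figure D1:**
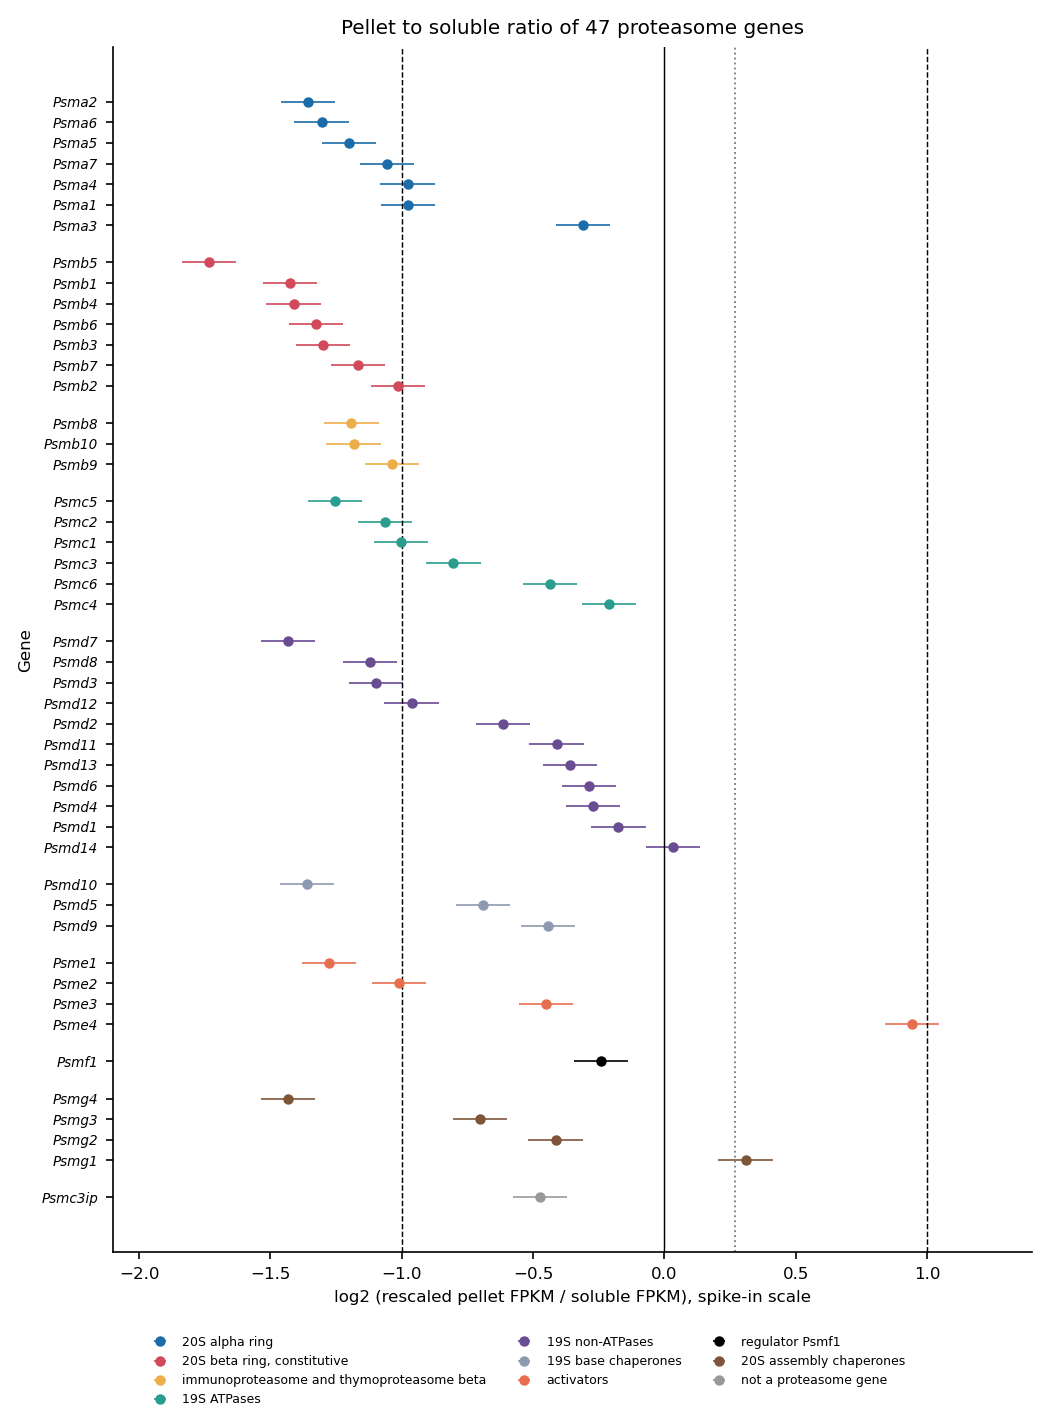
Log2 ratio of rescaled pellet to soluble FPKM (x axis) for each of the 47 tested genes (y axis), grouped by role. Bars are 1 SD of the spike-ins (0.10), not of replicates; dashed lines mark 2-fold, the solid line equality and the dotted line the median of the other protein-coding genes (0.27). The constitutive beta genes all sit at or left of -1.02, while Psme4 alone approaches the right-hand 2-fold line at 0.94.

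The 2-fold line ran through the middle of the group. The ratios of 16 genes lay within 0.21 of it, which is 2 SD of the spike-ins, 12 on the lower side and 4 on the other. Beyond that margin, 12 genes lay below it and 19 above. The count of 24 is therefore not firm, and the role groups are described by their medians as well. A common factor leaves the order of the genes unchanged, but genes less than 0.29 apart are not told apart by the technical scatter. At a threshold of 1.5-fold, 31 of 47 were lower, where 19.1% of all tested loci were. At 3-fold Psmb5 alone was, 1 of 47, where 3.26% of all tested loci were.

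The 14 constitutive genes of the 20S core were the most soluble of the larger groups. Of these, 11 were at least 2-fold lower in the pellet and the median was -1.25. All 7 constitutive beta genes were lower, with a median of -1.33 and a range from -1.73 to -1.02. Psmb2, at the upper end, lay within the technical scatter of the 2-fold line, and its ratio was -0.96 with the median spike-in ratio as the factor. Psmb5, which encodes the chymotrypsin-like protease site (ENSMUSG00000022193.6, chromosome 14, 54614120 to 54617995 in mm10), had 60.01 soluble and 5.35 pellet FPKM, a log2 ratio of -1.73. Psmb6, the caspase-like site, had 194.4 and 23.0 FPKM and a ratio of -1.33. Psmb7, the trypsin-like site, had 122.5 and 16.2 FPKM and a ratio of -1.17. The difference of 0.57 between Psmb7 and Psmb5 exceeds the technical scatter. Both share coordinates with other loci, Psmb5 with the microRNA locus Mir686 (826.8 soluble and 47.4 pellet FPKM, -2.37) and Psmb7 with Nek6 (0.29), and the part of these loci in the difference was not tested.

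Among the beta genes without a protease site, Psmb1 had 157.8 soluble and 17.4 pellet FPKM (-1.43). Psmb2 had 96.1 and 14.1 FPKM, and its ratio of -1.02 was the highest of the ring. Psmb4 stood apart by level rather than by ratio. It had 779.1 soluble and 86.8 pellet FPKM (ENSMUSG00000005779.8, chromosome 3, 94884093 to 94886961), which is 7.28-fold the median of the 14 constitutive core genes in the soluble fraction and 4.01-fold the next gene, Psmb6. The other 13 lay within 3.81-fold of each other, from 51.1 FPKM for Psma5 to 194.4. Subunits of the core are assembled in equal numbers, so these nuclear levels per length are not in the proportions of the particle. No other locus overlaps Psmb4 in the table, and its ratio of -1.41 was near that of Psmb1.

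The alpha ring genes had a median of -1.06, with 4 of 7 at least 2-fold lower. Of these, Psma5 (-1.20) and Psma7 (-1.06) lay within 0.21 of the 2-fold line. Psma2 (72.1 soluble and 8.34 pellet FPKM, ratio -1.36) and Psma6 (119.4 and 14.3 FPKM, -1.31) were lowest. Psma1 and Psma4 lay just inside the 2-fold line at -0.98 each. Psma3 was the outlying member, with 80.8 soluble and 19.3 pellet FPKM and a ratio of -0.31, which is 0.67 above the next alpha gene. It shares its coordinates with the antisense locus 3110056K07Rik, whose 3.06 soluble and 2.79 pellet FPKM give 1.62. The part of that locus in the value of Psma3 was not tested.

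**Figure D2:**
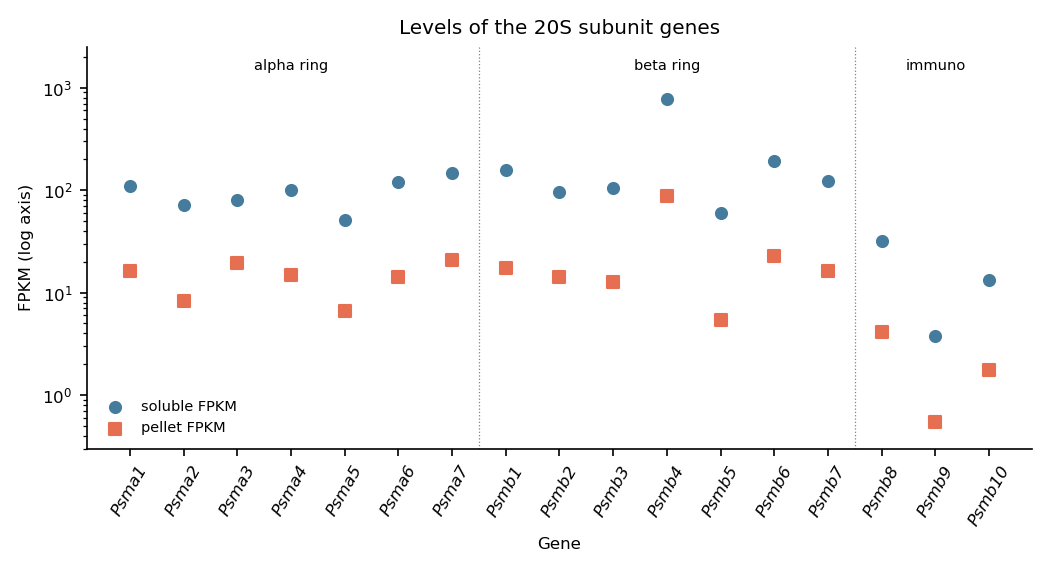
FPKM (y axis, log) of the 17 tested genes of the 20S core in the soluble fraction (circles) and the pellet (squares, without the spike-in factor); each point is the authors' pooled value. Psmb4 lies above all others at 779.1 and 86.8 FPKM, and the 3 immunoproteasome genes lie below the constitutive ones.

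The immunoproteasome genes encode beta subunits that replace the 3 protease sites, chiefly in immune cells and after interferon. All 3 were detected and all were at least 2-fold lower in the pellet, Psmb9 by a margin smaller than the scatter. All 3 lay within 0.21 of the 2-fold line. Psmb8, the counterpart of Psmb5, had 31.6 soluble and 4.10 pellet FPKM (-1.19). Psmb10, the counterpart of Psmb7, had 13.3 and 1.74 FPKM (-1.18). Psmb9, the counterpart of Psmb6, had 3.81 and 0.550 FPKM (-1.04). Its ratio was within 2-fold with 0.5 FPKM added to both values (-0.87) and with the median spike-in ratio as the factor (-0.99). In the soluble fraction Psmb8 reached 52.6% of the level of Psmb5, Psmb10 10.9% of Psmb7 and Psmb9 2.0% of Psmb6. In the pellet the shares were 76.6%, 10.7% and 2.4%. The 3 genes thus stood at unequal levels beside their counterparts, with Psmb8 8.28-fold over Psmb9 in the soluble fraction although their loci are neighbours in the major histocompatibility region of chromosome 17. The genes of the peptide transporter share their coordinates. Tap2, listed with Psmb8, had 40.7 soluble and 7.07 pellet FPKM, and Tap1, listed with Psmb9, had 11.4 and 2.66. The summed level of the 5 immune markers, 0.943 FPKM in the soluble fraction, was below that of each immunoproteasome gene. In the pellet the sum, 0.716 FPKM, was below Psmb8 and Psmb10 but above Psmb9.

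The genes known from single tissues, and a copy gene, were listed close to 0. Psma8, the alpha subunit of germ cells, was listed at 0.0000675 soluble and 0.000368 pellet FPKM. Psmb11, the beta subunit of the thymus, had 0.00224 and 0.00387 FPKM, although it lies 7.3 kb from Psmb5. Psme2b, a copy of Psme2, had 0.00930 and 0.00688 FPKM. These 3 are the members below the level filter, and no ratio is given for them. Rows for pseudogenes of Psmb5, Psmb6 and Psmb7 were all under 0.1 FPKM in both fractions.

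The 19S cap lay closer to balance than the core. Of its 17 genes, 6 were at least 2-fold lower, with a median of -0.62. The 11 non-ATPases had a median of -0.41 and 3 were lower, against -1.25 and 11 of 14 for the constitutive core. The difference between these medians was 0.84, is the same on both scales and was 0.80 over the genes that share coordinates with no other locus. The non-ATPases and the core overlapped, since Psmd7 lay among the most soluble core genes and Psma3 among the cap genes. The non-ATPases pool 8 genes of the lid of the cap, with a median of -0.69, and 3 of its base, at -0.27. The lid median was thus nearer to that of the 6 ATPases, -0.90, than to that of the 3 base genes. Median gene span was 13425 bp for the non-ATPases and 11999.5 bp for the core, and the non-ATPases with the longest spans, Psmd14 and Psmd1, had the highest ratios. Soluble levels had a median of 77.5 FPKM and a range from 49.4 to 144.7 for the non-ATPases, against 107.1 and a range from 51.1 to 779.1 for the core. The part of span and level in the difference was not tested.

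Within the lid of the cap, Psmd14 and Psmd7 had the ends of the range although their proteins form a dimer. Psmd14, the enzyme that cuts ubiquitin chains from the substrate (ENSMUSG00000026914.11, chromosome 2, 61711694 to 61800376), had 49.5 soluble and 15.04 pellet FPKM and a ratio of 0.03. Psmd7, its inactive partner (chromosome 8, 107580381 to 107588482), had 144.7 and 15.9 FPKM and a ratio of -1.43. Pellet levels of the pair were within 1.06-fold, and the soluble levels differed 2.92-fold. Psmd14 shares its coordinates with a short locus typed as ribosomal RNA, Gm25966, which had 1.99 soluble and 13.03 pellet FPKM. Whether that locus adds to its pellet value was not tested. Psmd8 (-1.12) and Psmd3 (-1.10), both structural lid subunits, were the other lid genes past 2-fold, and the remaining 4 lid genes ran from -0.96 for Psmd12 to -0.29 for Psmd6. Psmd8 and Psmd3 lay within 0.21 of the 2-fold line.

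The 3 non-ATPases of the base were all within 2-fold. Psmd1, a scaffold of the base, had 74.4 soluble and 19.5 pellet FPKM (-0.17). Its companion scaffold Psmd2 had 89.5 and 17.3 FPKM (-0.62), and Psmd4, a ubiquitin receptor, had 121.9 and 29.9 FPKM (-0.27). The locus of Psmd1 is shared with 6 other rows, among them the small nucleolar RNA Gm22786 at 165.7 soluble and 799.4 pellet FPKM. Its part in the value of Psmd1 was not tested.

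The ATPases, which unfold the substrate, form a ring of 6 different subunits and split evenly. Psmc5 (75.8 soluble and 9.43 pellet FPKM, -1.25), Psmc2 (79.7 and 11.3 FPKM, -1.06) and Psmc1 (-1.003) were at least 2-fold lower, Psmc2 and Psmc1 by margins smaller than the scatter. Psmc3 (-0.80) was within 2-fold at the highest soluble level of the cap, 200.5 FPKM. Psmc6 had 65.6 and 14.4 FPKM (-0.44) and Psmc4 101.8 and 26.1 FPKM (-0.21). The difference of 1.04 between Psmc4 and Psmc5 is larger than the technical scatter, and neither shares coordinates with another locus.

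**Figure D3:**
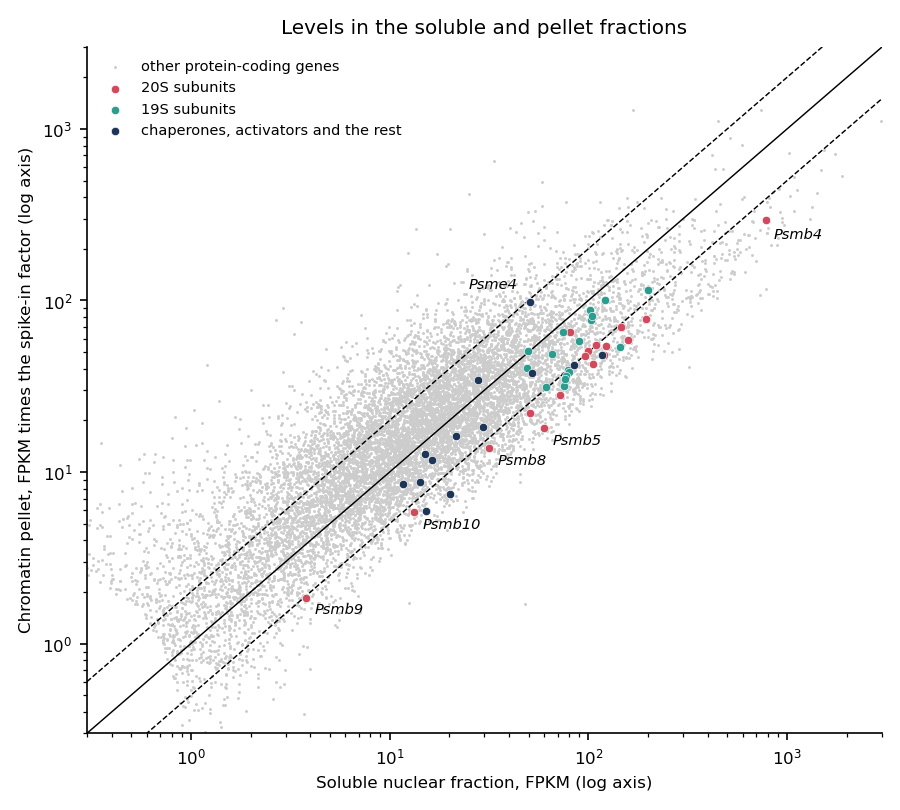
Soluble FPKM (x axis, log) against pellet FPKM times the spike-in factor (y axis, log) for tested protein-coding genes (grey) and for the proteasome genes by class; genes beyond the axes are not drawn. The solid line marks equality and dashed lines 2-fold. Most 20S genes lie near the lower dashed line or somewhat below it, from Psmb9 (3.81 FPKM) to Psmb4 (779.1 FPKM). Psma3 (log2 ratio -0.31) lies nearer equality and Psmb5 (-1.73) furthest below the line. Psme4 lies just under the upper dashed line.

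The activators spread widest. Psme1 and Psme2 encode the interferon-inducible cap of the cytoplasm and lie close together on chromosome 14, where the row of Psme1 shares its coordinates with Emc9 (-0.40). Psme1 had 117.2 soluble and 14.4 pellet FPKM (-1.28), and Psme2 had 84.6 and 12.4 FPKM (-1.01, within the scatter of the 2-fold line). Psme3, which encodes a related cap found in the nucleus, had 51.9 and 11.3 FPKM (-0.45), 0.83 above Psme1. Psme4, a large activator linked to histone degradation (ENSMUSG00000040850.13, chromosome 11, 30771726 to 30880361), had 51.1 and 29.1 FPKM and a ratio of 0.94. Its soluble level was within 1.02-fold of that of Psme3, while its pellet level was 2.59-fold higher. The row of Psme4 shares its coordinates with the processed pseudogene Gm12103 (0.787 soluble and 0.271 pellet FPKM, 0.21). The part of that locus in the value of Psme4 was not tested. Psme4 had the highest ratio of the 47, at the 74.1st percentile of the other protein-coding genes, and the longest span. On the FPKM scale its ratio was -0.81, and it was the only member within 2-fold there. Psmf1, which encodes a regulator that binds the core, had 15.1 and 3.79 FPKM (-0.24).

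The 7 assembly chaperone genes with Psm symbols had lower soluble levels than the cap and constitutive core subunits, and no common ratio. The 4 genes for chaperones of the core had soluble levels from 14.3 to 27.8 FPKM, against a lowest level of 49.4 FPKM among the cap subunits and 51.1 among the constitutive core. Psmg1 and Psmg2 encode partners in a dimer. Psmg1 had 27.8 soluble and 10.2 pellet FPKM (0.31) and Psmg2 had 21.5 and 4.78 FPKM (-0.41), 0.72 apart. Psmg3 and Psmg4 form the other dimer. Psmg3 had 14.3 and 2.60 FPKM (-0.70) and Psmg4 had 20.2 and 2.22 FPKM (-1.43), 0.73 apart. The partners of a dimer thus differed beyond the technical scatter in both cases. Psmg3 shares its coordinates with 3 other loci, among them Mafk (10.13 soluble and 4.90 pellet FPKM, 0.70). Their part in the difference from Psmg4 was not tested. Of the chaperones for the base of the cap, Psmd10 (15.2 and 1.76 FPKM, -1.36) was lower, and Psmd5 (29.5 and 5.42 FPKM, -0.69) and Psmd9 (11.6 and 2.54 FPKM, -0.44) were within 2-fold. Psmd9 shares its coordinates with 8 other loci, among them AI480526 (2.96 soluble and 8.63 pellet FPKM), and their part in its value was not tested. Psmc3ip, caught by the name pattern, encodes a cofactor of meiotic recombination and no part of the proteasome. It had 16.4 and 3.49 FPKM (-0.47).

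Longer genes lay nearer the pellet, among proteasome genes as among others. Spearman's rho of the ratio with RefSeq gene span was 0.38 over the 47 genes, 0.34 without Psme4, and 0.44 over 10672 other protein-coding genes. These are descriptions across genes that share the same 2 pooled values. Proteasome genes are shorter than others, with a median span of 11.6 kb against 24.5 kb. They lay lower than others of like span throughout. Under 5 kb the median was -1.19 over 9 proteasome genes and -0.68 over 1151 others. From 10 to 20 kb it was -0.97 over 14 genes and 0.03 over 2171. From 40 kb it was -0.17 over 5 genes and 0.74 over 3681. Higher levels went with lower ratios, more weakly among the proteasome genes. Spearman's rho with mean FPKM was -0.19 over the 47 and -0.31 over the others, and with total level -0.06 and -0.18. That mean contains the soluble FPKM by which the ratio is divided. Between 20 and 60 FPKM in the mean of both fractions, the median was -1.003 over 21 proteasome genes and -0.10 over 2180 others. Between 60 and 120 FPKM it was -1.06 over 13 and -0.63 over 473.

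**Figure D4:**
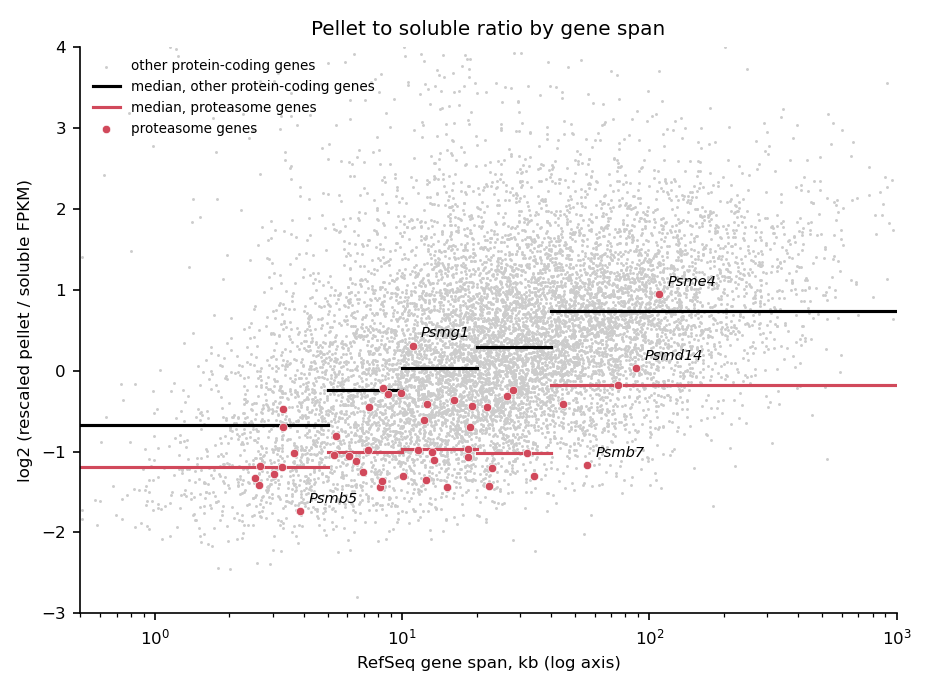
Log2 ratio (y axis) against RefSeq gene span in kb (x axis, log) for proteasome genes (red) and other tested protein-coding genes (grey), with medians per span class as bars; genes beyond the axes are not drawn. The red bar lies below the black one in all 5 span classes, for example at -0.97 against 0.03 from 10 to 20 kb, and Psmb7 is the long gene that lies low.

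Rows that share coordinates with a proteasome gene often had other ratios. Of the 47 tested genes, 21 share coordinates with at least 1 other locus. Psmb10 had -1.18, while Slc12a4 in the same coordinates had 0.85. Psmb7 had -1.17 and its partner Nek6 0.29. Psmc3 had -0.80 and Slc39a13 0.40. Psmb5 had -1.73 beside the microRNA locus Mir686 at -2.37, with 826.8 soluble and 47.4 pellet FPKM. The sources used here do not give how fragments were divided between such loci. Without the 21 genes, 15 of 26 were at least 2-fold lower and the median was -1.01.

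Beside 3 other gene sets, the median of the proteasome genes lay below that of translation factors and above those of ribosomal proteins and complex I. Genes of cytosolic ribosomal proteins had 70 of 77 lower and a median of -1.54. Subunits of respiratory complex I from nuclear genes had 29 of 36 lower and a median of -1.58. Translation initiation and elongation factors had 16 of 60 lower, 6 higher and a median of -0.55. Of all tested loci, 10.5% were at least 2-fold lower and 31.9% higher. The constitutive 20S genes, at -1.25, were thus nearer to the ribosomal and respiratory genes, and the cap non-ATPases, at -0.41, nearer to the translation factors. With 1 pooled value per fraction, these differences between sets could not be tested.

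**Figure D5:**
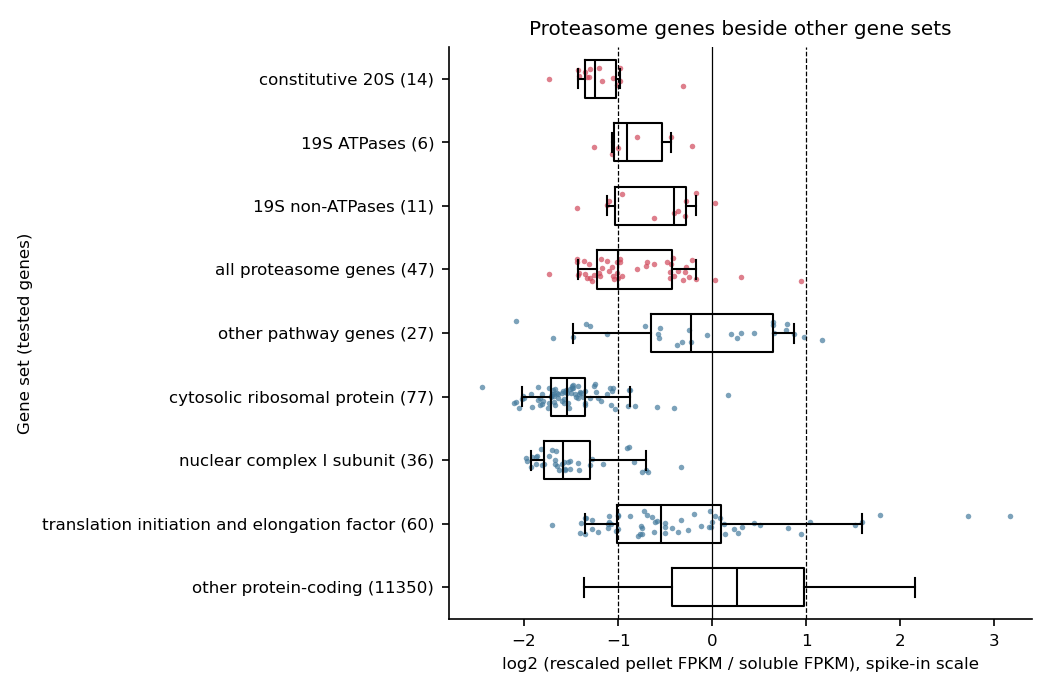
Log2 ratio (x axis) of single genes (points) by gene set (y axis, with the number of tested genes); boxes give the median and quartiles, whiskers the 5th and 95th percentiles. Medians run from -1.58 for complex I to 0.27 for other protein-coding genes, with the constitutive 20S genes at -1.25 and the 19S non-ATPases at -0.41.

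Other genes of the ubiquitin and proteasome pathway had a median of -0.22, between that of the proteasome genes and the 0.41 of all tested loci. Of 29 listed, 27 were found and tested. At least 2-fold lower in the pellet were 6 (22.2%), where 10.5% of all tested loci were, and 1 (3.7%) was higher, where 31.9% were. Among the ubiquitin genes, Ubb, a polyubiquitin gene, had 78.7 soluble and 7.23 pellet FPKM (-1.69), and Rps27a, which encodes ubiquitin fused to a ribosomal protein, had 204.0 and 24.5 FPKM (-1.30). Pomp, the maturation factor of the core, had 100.8 and 10.7 FPKM (-1.48), near the core genes it serves. Shfm1, now named Sem1, a small cap subunit outside the Psm series, had 62.8 and 7.33 FPKM (-1.35). Adrm1, a ubiquitin receptor of the cap, had 16.01 and 7.41 FPKM (0.64). AI314180, now named Ecpas, which encodes a factor that holds cap and core together, was the gene past 2-fold towards the pellet, with 69.5 and 46.5 FPKM (1.17). The transcription factors that raise proteasome genes under stress lay within 2-fold. Nfe2l1 had 103.9 and 20.7 FPKM (-0.57) and Nfe2l2 7.42 and 1.88 FPKM (-0.22).

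Of the 50 members, 42 had a promoter window in the RefSeq table, 45 windows in all, from 250 bases before to 50 after a start. TGANNNNGC was in the window of 24 of 42 members (57.1%), in 47.8% of the 8614 other tested protein-coding genes with a window and in 41.3% of all 32851 windows. CCGGAAG was in 15 members (35.7%), in 21.1% of those other genes and in 8.86% of all windows. GCGCANGCG was in 7 (16.7%), 16.3% and 6.25%. GAAANNGAA was in 7 (16.7%), Psme1 among them but not Psmb8, Psmb9 or Psmb10, in 8.07% of the other genes and in 8.56% of all windows. CCAAT was in 15 members (35.7%), 44% and 37.4%, and TATAAA in 4 (9.52%), 8.15% and 13.6%. Median log2 ratios of tested members with and without a motif differed in either direction. They were -0.45 over 15 genes with CCGGAAG and -1.12 over 25 without it, and -0.31 over 7 with GCGCANGCG and -1.003 over 33 without it. For TATAAA they were -0.74 over 4 and -0.98 over 36. The members with the motif were lower for TGANNNNGC (-1.04 over 23 against -0.62 over 17), CCAAT (-1.02 over 14 against -0.83 over 26) and GAAANNGAA (-1.28 over 7 against -0.96 over 33). Among the other protein-coding genes with a window, the medians with and without each of the 6 motifs lay between 0.21 and 0.32. Several windows hold more than 1 motif, and a match is a run of letters, not a site shown to be bound.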

How the data were processed

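The 6 libraries of HL-1 nuclear RNA, 3 per fraction, are held in a single table of the whole series. Per the file headers, the authors deposited 1 FPKM value per fraction and locus, a rescaled pellet signal and a total signal, the ratio of rescaled pellet to soluble FPKM, and the log10 of the total and of that ratio. The submitters' processing notes name HISAT2, SAMtools, Cufflinks, bedtools, Cuffdiff and mm10; the sources used here give neither versions nor settings. Repeated identifiers were dropped (30687 lines, 28742 identifiers). The rescaled column equals pellet FPKM times 3.37, which is also the slope through the origin fitted by least squares to the 82 spike-ins. The log2 ratio was recomputed from the FPKM columns with no pseudocount, since no value is 0. A locus was tested where its 2 FPKM values averaged 0.5 or more. FPKM keeps no counts, so depth and counting intervals are unknown. The planned limma fit needs values per library and was not run; no p-value was computed. The code was tested on simulated data. Members, lists, pairs and motifs were chosen with earlier results of these data known. All members could be named, with full values for the extremes of each role group; pathway genes were named by size of ratio, and 1 of them is not reported here. Table starts count from 0, and 1 was added. Spans (all 50 members matched) and sequences are RefSeq's on GRCm38.p6; printed stretches were trimmed to bases outside RefSeq genes and before the table's own start. Python 3.11.15, pandas 2.3.3 and scipy 1.17.1 were used.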

Additional observations from a re-analysis of the deposited data

How the results depend on the processing

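On the FPKM scale, without the spike-in factor, every ratio is lower by 1.75. There 46 of 47 proteasome genes were at least 2-fold lower and the median was -2.76. The medians became -2.81 for the alpha ring, -3.08 for the constitutive beta ring, -2.94 for the immunoproteasome genes, -2.66 for the ATPases, -2.16 for the non-ATPases, -2.44 for the base chaperones, -2.48 for the activators and -2.31 for the core chaperones. Other pathway genes had 22 lower, 0 higher and a median of -1.98. Psme4, Psmg1 and Psmd14 changed sign. With the median spike-in ratio as the factor, 20 proteasome genes were lower (no longer Psmc1, Psmb2, Psmb9 and Psme2). There 2 of 27 other pathway genes (7.4%) were higher, where 31.9% of all tested loci were with the authors' factor. Shares of all loci were not computed for the median factor, for the other filters or with 0.5 FPKM added. With no filter on low values, 3 proteasome genes were higher (Psma8, Psmb11 and Psme2b) and the activator median was -0.45. At 1.5-fold, 31 proteasome genes were lower and 1 higher, and 8 of 27 other pathway genes (29.6%) were higher. The share of all tested loci at least 1.5-fold higher was not computed, but 31.9% were higher even at 2-fold. At 3-fold, 1 proteasome gene was lower. Without genes that share coordinates, 15 of 26 were lower. Relative to the median of the other protein-coding genes, an alternative added after the data were seen, 28 were lower and the median was -1.27. The share of all tested loci on that scale was not computed. With a mean of at least 5 FPKM, 0.5 FPKM added to both values, or only the 34 subunits of core and cap, the counts (23, 22 and 20 lower; Psmc1 and Psmb9 were lost with 0.5 FPKM added) and medians (-0.99, -0.97 and -1.05) moved by less than the limits set (1.5 times for counts, 1 SD of the spike-ins for medians). The difference of 0.84 between cap non-ATPases and core cannot change with a common factor or centre, and the filter at 5 FPKM removed no gene of either group. It was 0.79 with no filter, 0.83 with 0.5 FPKM added and 0.80 without genes that share coordinates. No paired analysis was possible because the deposited columns hold 1 pooled value per fraction, and for the same reason no library could be left out.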
